A study of Homo sapiens with 2 samples.

Results

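Small nucleolar RNA (snoRNA) host genes are transcribed as long RNAs whose introns carry snoRNAs, short guide RNAs that direct chemical modification of ribosomal and spliceosomal RNA. After splicing, the introns are trimmed to release the snoRNAs, while the joined exons of many hosts are exported and degraded by nonsense-mediated decay, which couples their decay to translation. C/D box snoRNAs (SNORD names) guide 2′-O-methylation and H/ACA box snoRNAs (SNORA names) guide pseudouridylation. The transcripts of several hosts are known to begin with a run of pyrimidines, the terminal oligopyrimidine start that also marks ribosomal protein genes and ties their translation to nutrient signalling.

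10 such hosts were examined in 95D cells, an established human lung cancer line of wild-type genotype: SNHG14, GAS5, ZFAS1, SNHG1, SNHG5, SNHG6, SNHG7, SNHG8, SNHG12 and SNHG16. They were chosen by name, as table entries carrying these names and a number. All 10 were found, among 9253 names in all, with 140 of the 18663 transcripts that carried a value. The rest of their 486 table entries, the larger part, held no number and was left out. Each summed value below thus covers only part of a host's entries, such as 29 of 142 for SNHG14 and 9 of 89 for SNHG5. The series' title and design concern RNAs associated with the m6A demethylase ALKBH5, but the sample labels describe total RNA and do not say which library is a pull-down or an input. The 2 libraries were 1 from cells held 48 h without glucose and 1 from cells held 48 h without glutamine, both in medium with dialysed serum and after 24 h in complete medium. Both sample descriptions point to a glucose column of the joint table, and the column of the glucose-deprived sample is headed Glu. Each file was taken as that of the sample it was deposited under, whose title names the nutrient, and every comparison below rests on that assignment. With 1 library per condition there is no replicate check, so every difference below describes these libraries and no p-value is given.

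The deposited values have no stated unit. Low values rose in equal steps, so whole reads could be recovered from them: for all listed transcripts 42827 reads without glucose and 1442572 without glutamine. Values are not divided by transcript length, so an order of names is an order of reads and not of RNA molecules. Most names stood at 0 without glucose, ribosomal protein gene RPL3 and keratin gene KRT18 among them, so a 0 there is reported as listed at 0, without an upper limit or a fold. As to the labelled cell type, the epithelial keratins KRT8, KRT18 and KRT19 stood at 143, 75.1 and 42.6 in the glutamine-deprived library. The mesenchymal markers FN1 and VIM stood at 963 and 75.9 there. In the glucose-deprived library KRT8 stood at 200 and FN1 at 344, while KRT18, KRT19 and VIM were listed at 0. Of the lung lineage markers NAPSA had a value, at 161 and 18.9 in the glucose- and glutamine-deprived libraries, while NKX2-1 and SFTPB had none. EPCAM, CDH1, CDH2 and the 3 blood markers had none either.

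In the RefSeq annotation of GRCh38.p14 all 10 names are long non-coding RNA genes, and 120 snoRNA genes lie inside their spans. SNHG14, on chromosome 15 from 24823608 to 25419462, holds 84 of them, including 48 SNORD115 and 30 SNORD116 copies, in 595.9 kb. It is the imprinted transcript of the Prader-Willi region and runs antisense to UBE3A. The other 9 genes span 1.1 to 11.1 kb and hold 36. GAS5 holds 11 (10 SNORD and 1 SNORA) and SNHG1 holds 9. SNHG12 holds 4, of which 3 are SNORA genes, and ZFAS1 and SNHG16 hold 3 SNORD genes each. SNHG5 holds SNORD50A and SNORD50B, SNHG7 holds SNORA17A and SNORA17B, SNHG8 holds SNORA24 and SNHG6 holds SNORD87. Of the 10 spans, 5 overlap another gene that is no snoRNA. That of SNHG14 overlaps 14, among them SNRPN, SNURF, IPW and UBE3A. Strand use in counting is not given in the sources used here, and whether reads of such genes are counted under a host was not tested.

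Start regions were read from RefSeq for 9 of the 10 genes, and 8 are shown. These are the hosts seen in both libraries and those that share a core promoter feature, TATAA. SNHG1 is not shown. It was seen in the glutamine-deprived library alone and has no TATAA in this region. The regions shown are thus a chosen set, from which no contrast between these hosts is drawn, and the counts below cover all 9. Each region runs from 40 bases before to 20 bases after the annotated start, in GRCh38.p14 and along the gene's strand. Capitals mark TATAA and, where the start base is C, the unbroken run of C and T that begins there. For ZFAS1 and SNHG12 the start lies inside the annotated gene span.
SNHG14 (chr15:24823568-24823627, plus strand): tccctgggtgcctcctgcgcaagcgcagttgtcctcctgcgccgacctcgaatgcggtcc
GAS5 (chr1:173869026-173869085, minus strand): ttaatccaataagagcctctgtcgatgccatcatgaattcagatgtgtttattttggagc
SNHG16 (chr17:76557724-76557783, plus strand): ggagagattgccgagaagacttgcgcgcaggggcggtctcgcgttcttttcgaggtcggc
SNHG5 (chr6:85678714-85678773, minus strand): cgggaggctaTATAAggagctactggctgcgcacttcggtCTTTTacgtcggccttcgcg
ZFAS1 (chr20:49278602-49278661, plus strand): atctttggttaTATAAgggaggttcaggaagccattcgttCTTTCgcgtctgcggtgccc
SNHG7 (chr9:136728165-136728224, minus strand): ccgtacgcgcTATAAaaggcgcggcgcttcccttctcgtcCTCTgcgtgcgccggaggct
SNHG8 (chr4:118278722-118278781, plus strand): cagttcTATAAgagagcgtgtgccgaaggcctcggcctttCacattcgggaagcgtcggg
SNHG12 (chr1:28581854-28581913, minus strand): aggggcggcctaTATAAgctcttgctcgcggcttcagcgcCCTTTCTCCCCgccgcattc

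TATAA, the core of the TATA box, lay between 40 and 16 bases before the start on the gene's strand in 5 of the 9, against 3.91% of 35116 RefSeq start regions and 2.22% of the 12917 of long non-coding RNA genes. Counting either strand (TATAA or TTATA, overlapping matches of both counted once) gave the same 5 and 4.72% of all regions. In these 5 it began 28 to 34 bases before the start. The start base was C in 6 of the 9, against 14.7% of all regions and 20.4% of those of long non-coding RNA genes, and in 4 (ZFAS1, SNHG5, SNHG7 and SNHG12) the run of C and T from a starting C was at least 4 bases long, against 5.45% and 4.99%. GAS5 starts with A at its annotated start and has no such run there. The longest, of 11 bases, was that of SNHG12. GGGCGG, the GC box, was present on either strand of the 300-base region in 7 of 9, against 45.0% of all and 25.5% of long non-coding RNA regions. CACGTG, the E-box, was present in SNHG7 alone (7.26% and 5.40%), and TGATGNAA, an ATF4 composite element, in 0 (3.62% and 5.20%). Of the 4 hosts above 0 in the glucose-deprived library, SNHG5 was the 1 with TATAA at this place. Of the hosts listed at 0 there, ZFAS1, SNHG7, SNHG8 and SNHG12 had it, SNHG1 did not, and SNHG6 had no start region. A link between TATAA and being seen without glucose was not tested. These are matches of letters in 1 annotated start per gene, and whether those are the starts used in 95D cells was not tested.

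All 10 hosts were above 0 in the glutamine-deprived library, as were 99.5% of all names. Each of their 140 transcripts with a number was above 0 in at least 1 library, and few were so without glucose. Being above 0 without glutamine was thus nearly fixed by the choice of entries with a number. SNHG14, whose span other genes overlap, led at a summed value of 3107, the 10th highest of all names. SNHG16, the host of SNORD1A to SNORD1C, followed at 864 and GAS5, a growth-arrest-associated host, at 678. ZFAS1, known for its antisense position next to ZNFX1, stood at 510.1. These 4 differed by more than counting error. Of the reads on transcripts with a number they took 0.272% (95% Wilson interval 0.264 to 0.281), 0.0757% (0.0713 to 0.0803), 0.0595% (0.0556 to 0.0636) and 0.0447% (0.0414 to 0.0483). SNHG7 stood at 339 and SNHG12 at 217. SNHG8 at 151, SNHG1 at 137 and SNHG5 at 135 rested on 191, 174 and 171 reads, and their intervals overlapped. SNHG6 stood at 1.56, which is 2 reads in 1 transcript, the 1 of its 8 entries with a number. The intervals hold for counting error alone, because PCR copies without molecular identifiers are not separate molecules.

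In the glucose-deprived library 4 of the 10 were above 0, against 4.25% of all names: SNHG14 at 1134, SNHG16 at 240.2, SNHG5 at 147 and GAS5 at 106. They rested on 897, 190, 116 and 84 reads. SNHG14 was the 3rd most abundant name there. ZFAS1, SNHG1, SNHG6, SNHG7, SNHG8 and SNHG12 were listed at 0. The hosts are abundant names, and abundance goes with being listed above 0: of the names at 100 or more in the glutamine-deprived library 13.3% were above 0 without glucose, as were 4 of the 9 hosts at that level. That level was chosen after the data were seen. Neither library's order followed the other throughout, since ZFAS1, the 4th host in the glutamine-deprived library, was listed at 0 while SNHG5, the 9th, was above GAS5.

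**Figure D1:**
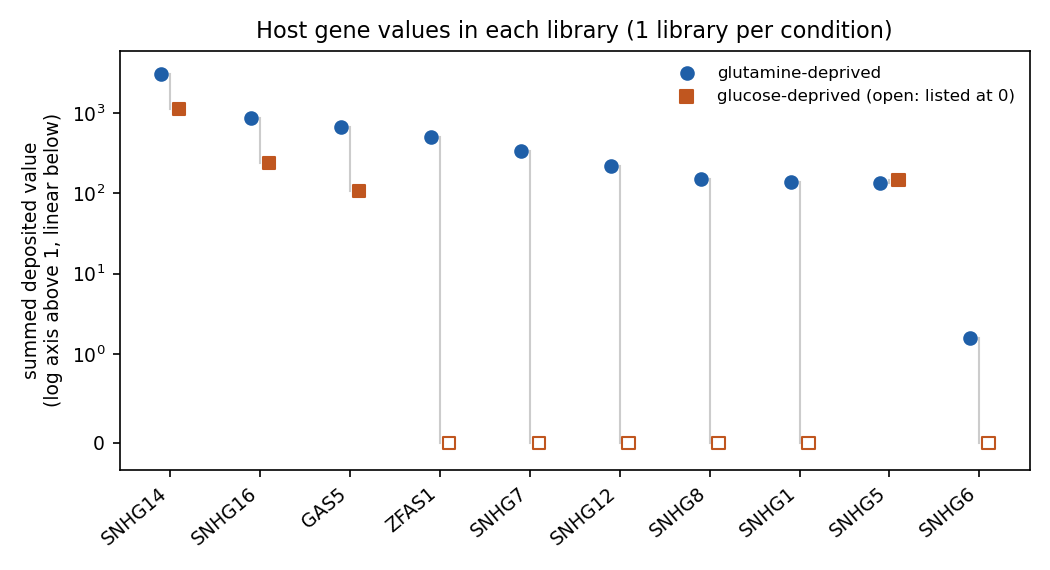
Summed deposited value of each host (vertical axis, logarithmic above 1 and linear below) in the glutamine-deprived (circles) and glucose-deprived (squares, open where listed at 0) library, 1 library each. SNHG14 is highest in both, 6 hosts are listed at 0 without glucose, and SNHG5 is the host with near-equal values, at 147 and 135.

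Which library was higher depended on the scale for the 4 hosts seen in both. SNHG14 went from 1134 without glucose to 3107 without glutamine, a ratio of 2.74 (95% counting interval 2.55 to 2.95) as deposited. The ratio was 3.60 (3.08 to 4.22) for SNHG16 and 6.38 (5.10 to 8.10) for GAS5. For SNHG5 it was 0.921 (0.725 to 1.18), an interval that includes 1. Over the transcripts with a number, the deposited values summed to 21.1 times as much in the glutamine-deprived library. After rescaling each of these sums to 1000000 all 4 stood higher in the glucose-deprived library. The log2 ratios were -2.94, -2.55, -1.72 and -4.50 for SNHG14, SNHG16, GAS5 and SNHG5. On the log2(value + 1) scale as deposited 9 of 10 hosts stood 2-fold or more higher without glutamine (97.4% of all names) and 0 without glucose (1.42%). After rescaling the counts were 6 (96.0%) and 4 (3.75%). The 6 are the hosts listed at 0, which pass through the pseudocount. Among names above 0 in both libraries, 3 of the 4 hosts were at least 2-fold higher without glutamine as deposited (42.2% of such names), and all 4 at least 2-fold higher without glucose after rescaling (86.9%). The median log2 ratio of the 10 was 4.89, beside 4.32 over all names, and both are set largely by names listed at 0. With the largest transcript of each name alone, as deposited, the log2 ratios of SNHG14 and SNHG16 were 0.42 and 0.76, under 2-fold. No direction between the conditions is therefore drawn for these 4.

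Ratios between hosts within a library do not change with scale, and they were compared for the 6 pairs that the 4 hosts form, which was decided on with the values known. SNHG14 reads were 10.7 times those of GAS5 (exact 95% counting interval 8.53 to 13.5) without glucose and 4.58 times (4.25 to 4.93) without glutamine. SNHG14 stood to SNHG5 as 7.73 (6.37 to 9.47) without glucose and as 23.0 (19.7 to 26.9) without glutamine. SNHG14 and SNHG16 kept the closest proportion, 4.72 (4.03 to 5.55) and 3.60 (3.36 to 3.85). The pair furthest apart was GAS5 and SNHG5: GAS5 had 0.724 (0.540 to 0.967) times the reads of SNHG5 without glucose and 5.02 (4.25 to 5.95) times without glutamine, 6.93-fold apart (5.01 to 9.59). GAS5 to SNHG16 was 0.442 (0.338 to 0.574) and 0.786 (0.718 to 0.860). SNHG5 to SNHG16 was 0.611 (0.480 to 0.773) and 0.157 (0.132 to 0.184). In all 6 pairs, over all transcripts, the intervals of the libraries did not overlap. Over all transcripts, SNHG5 had more reads relative to the other 3 hosts without glucose and GAS5 had more without glutamine, beyond counting error. For GAS5 this depended on which transcripts were counted. Over the transcripts above 0 in both libraries, a choice made with the values known, SNHG14 to GAS5 went from 9.30 (7.42 to 11.8) without glucose to 16.8 (14.0 to 20.4) without glutamine, and GAS5 to SNHG16 from 0.442 (0.338 to 0.574) to 0.229 (0.186 to 0.280), so that both turned. SNHG14 to SNHG16 was then 4.11 (3.50 to 4.84) and 3.85 (3.50 to 4.25), with overlapping intervals. The ratios with SNHG5 kept their direction, SNHG5 then resting on 19 reads without glutamine. Whether the spread between cultures is as large was not tested, as each condition has 1 library.

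**Figure D2:**
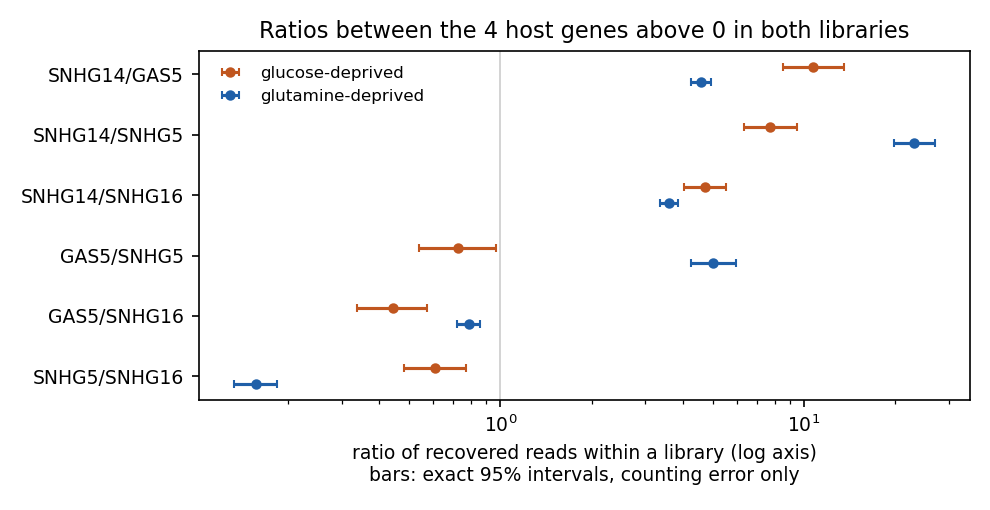
Ratio of recovered reads of 2 hosts within a library (horizontal axis, logarithmic) for the 6 pairs of hosts above 0 in both libraries, with exact 95% intervals for counting error. GAS5 to SNHG5 moves from 0.724 without glucose to 5.02 without glutamine, and SNHG14 to SNHG16 moves least, from 4.72 to 3.60.

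Of the reads on transcripts with a number, the 10 hosts took 3.01% (2.85 to 3.17) without glucose and 0.538% (0.526 to 0.550) without glutamine. Entries without a number are outside these totals, so these are not shares of a whole library. Without the most abundant name of each library, the shares were 3.45% and 0.879%. SNHG14 alone took 2.09% and 0.272%. A larger share without glucose was common: of names above 0 in both libraries 86.9% were at least 2-fold higher there after rescaling. The glucose-deprived reads fell on 393 names, and no direction is drawn from these shares. Of the hosts' own reads SNHG14 made up 69.7% (67.1 to 72.1) without glucose and 50.6% (49.5 to 51.7) without glutamine. The former share is taken over 4 hosts above 0 and the latter over 10.

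Values of a host were spread very unevenly over its transcripts, which the files list without identifiers. They are numbered here by their value in the glutamine-deprived library, the order of equal values being arbitrary. Of the 140 transcripts 139 were above 0 in the glutamine-deprived library and 14 in the glucose-deprived library, or 10.0%, against 2.54% of all transcripts. No interval is given for this share, because transcripts of the same host are not independent. These 14 were 6 of SNHG5, 4 of GAS5, 3 of SNHG14 and 1 of SNHG16, and 13 of them were above 0 in both libraries. Reads shared between overlapping transcripts of a name cannot be told apart here.

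SNHG14 had 29 transcripts with a value. Transcript 1 stood at 679 without glucose and 907 without glutamine, and transcript 2 at 308 and 663. Together they held 50.5% of the name's value without glutamine. The next, transcript 3, was at 407 without glutamine and listed at 0 without glucose. Transcript 29 ran the other way, at 147 without glucose and listed at 0 without glutamine, and held 12.9% of the name's value in the former. The median SNHG14 transcript was at 20.5 without glutamine. SNHG14 thus had the same leading transcripts in both libraries, and 26 further ones above 0 without glutamine alone.

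SNHG16 had 7 transcripts. Its single transcript above 0 without glucose, at 240.2, was also its largest without glutamine, at 407, where it held 47.2% of the value. Transcripts 2 and 3 stood at 196 and 189 without glutamine. The remaining 4 lay between 2.35 and 39.5 there.

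GAS5 was the host with the most transcripts that carried a value, 53 of 91 entries (29 of 142 for SNHG14), of which 45 were under 10 without glutamine. Its largest one there, at 199, was listed at 0 without glucose. The largest without glucose, at 64.5 or 51 reads, stood at 4.73 or 6 reads without glutamine, a 60.7% share of the name against 0.698%. Transcript 2 was seen well in both, at 32.9 and 73.6. The other GAS5 transcripts above 0 without glucose stood at 7.61 and 1.29 there and at 8.68 and 6.31 without glutamine. The 4 transcripts above 0 without glucose held 13.8% of the GAS5 value without glutamine.

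SNHG5 had 9 transcripts, and near-equal sums in the libraries came from different ones. Transcript 1 stood at 103 (130 reads) without glutamine and was listed at 0 without glucose. Transcript 7 stood at 138 (109 reads) without glucose and at 0.772, a single read, without glutamine. It held 93.9% of the name's value without glucose and 0.572% without glutamine. The 5 others above 0 without glucose rested on 1 or 2 reads each. The ratios of SNHG5 and of GAS5 to other hosts over all transcripts, given above, therefore compare largely different transcripts.

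The share of a host's value placed on the same transcripts in both libraries (the sum over transcripts of the smaller of both percentages) was 50.5% for SNHG14, 47.2% for SNHG16, 13.8% for GAS5 and 5.20% for SNHG5. Over the 276 names with at least 2 transcripts and above 0 in both libraries its median was 27.3%, with quartiles of 5.06 and 62.1%. The largest transcript was the same in both libraries for 2 of the 4 hosts and for 38.8% of those names. A change of leading transcript, as in GAS5 and SNHG5, was thus common in this pair of libraries.

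**Figure D3:**
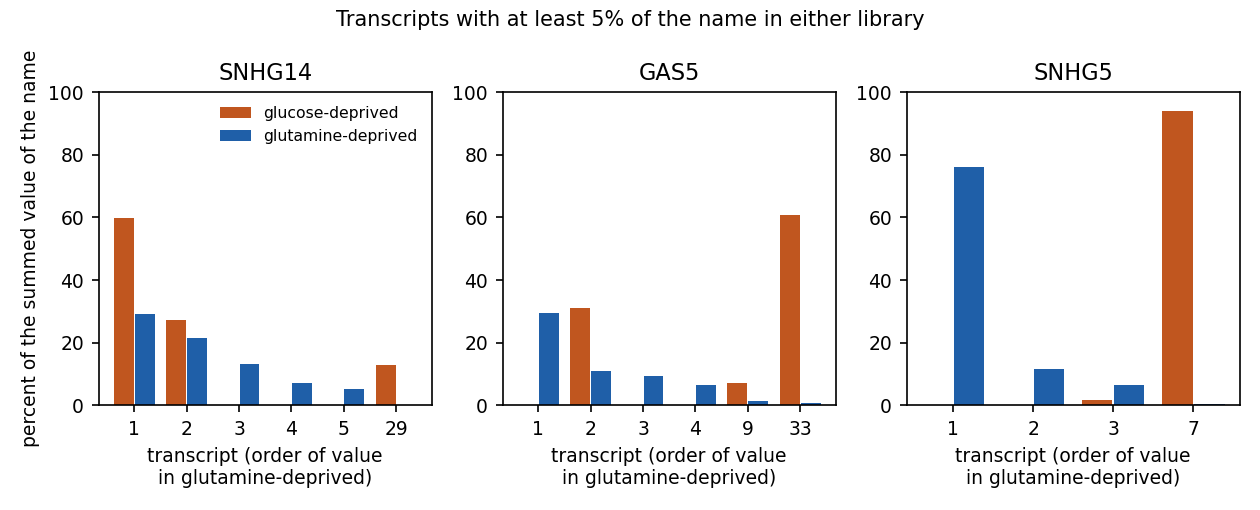
Percent of a host's summed value (vertical axis) on each transcript holding at least 5% in either library, for SNHG14, GAS5 and SNHG5. SNHG14 has transcripts 1 and 2 in both libraries, whereas SNHG5 has 93.9% on transcript 7 without glucose and 76.1% on transcript 1 without glutamine.

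For the 6 hosts listed at 0 without glucose only the glutamine-deprived library describes the transcripts. SNHG12 and SNHG7 were dominated by a single transcript, at 186 (85.5% of the name) and 237 (69.7%). ZFAS1 had 10 transcripts, from 2.35 to 201, and the upper 2 held 201 and 112. SNHG8 had 6, led by a pair at 65.6 and 54.6. SNHG1 was the most evenly spread, with 15 transcripts between 1.56 and 25.3 and the largest holding 18.4%. All 6 transcripts of SNHG7 and all 15 of SNHG1 were listed at 0 without glucose, as was every transcript of ZFAS1, SNHG6, SNHG8 and SNHG12.

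**Figure D4:**
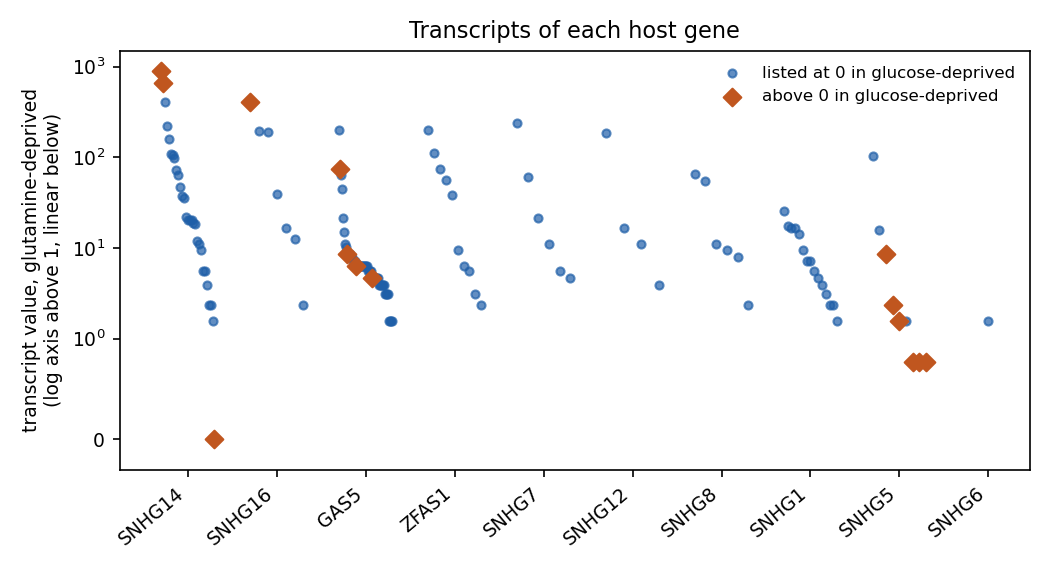
Value of each transcript in the glutamine-deprived library (vertical axis, logarithmic above 1 and linear below), grouped by host and sorted by value. Diamonds are the 14 transcripts above 0 in the glucose-deprived library, which lie in SNHG14, SNHG16, GAS5 and SNHG5, at high and low values alike.

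Of the other SNHG names and the hosts DANCR and EPB41L4A-AS1, 18 of 24 had a value. All 18 were above 0 in the glutamine-deprived library, as were 99.5% of all names, and 2 of 18 in the glucose-deprived library, beside 4.25% of all names. These 2 were SNHG29 at 121 without glucose and 514 without glutamine, and EPB41L4A-AS1 at 131 and 174. SNHG3 at 933, SNHG17 at 566 and SNHG15 at 211 were the other high names without glutamine, and all 3 were listed at 0 without glucose. The median log2 ratio of the 18 was 5.69, beside 4.32 over all names. Both are set largely by names listed at 0 without glucose, so they follow the level without glutamine and are no fold.

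Protein-coding genes that carry snoRNAs in their introns were listed above 0 without glucose in 9 of 17 cases, beside 4.25% of all names. The 13.3% of names at 100 or more without glutamine is no matching share. Of these 9, RPL23A, EIF4G2, DKC1 and TCP1 lay under that level. Many of them encode ribosomal proteins and translation factors, and their reads cannot be told from those of pseudogenes. EIF4A1, an RNA helicase of translation initiation, stood at 187 and 461 in the glucose- and glutamine-deprived libraries, and its paralog EIF4A2 at 88.5 and 292. RPL13A stood at 262 and 198, RPL23A at 188 and 34.0, EIF4G2 at 257 and 83.7, and TCP1, a chaperonin subunit, at 58.2 and 34.7. RPSA at 843 and RACK1 at 745 led without glutamine, but had 5 and 7 reads without glucose. NCL, the nucleolar protein nucleolin, was at 413 without glutamine and listed at 0 without glucose. The median log2 ratio of the 17 was 4.13, likewise that of a name listed at 0 without glucose.

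Of the proteins that form or assemble snoRNA particles 10 of 17 had a value. DKC1, the pseudouridine synthase of H/ACA particles, was the 1 of 10 above 0 without glucose (4.25% of all names), at 26.6 against 79.1 without glutamine. NOP56, a core protein of C/D particles, stood at 114, and RUVBL2 and RUVBL1, ATPases that help assemble the particles, at 167 and 91.7, all listed at 0 without glucose. Of the nonsense-mediated decay factors 7 of 10 had a value and 0 of 7 were above 0 without glucose, which with 4.25% of all names above 0 says nothing particular about them. SMG5 stood at 130, SMG1, the kinase of the pathway, at 109.9, UPF1, its helicase, at 108 and UPF3A at 55.3 without glutamine. The median log2 ratios of the lists were 5.40 and 5.82, again set largely by names listed at 0 without glucose.

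The names nearest to each host seen in both libraries were found by the Euclidean distance of log2(value + 1) over the 2 libraries, which is a likeness over 2 values only. Nearest to SNHG14 were EEF1A1 at 951 and 2100 (distance 0.62), NAMPT at 735 and 1364 (1.34) and HSPA5 at 357 and 4192 (1.72). Nearest to GAS5 were SLC3A2 at 109 and 630 (0.11), DDX3X at 131 and 755 (0.34) and GARS1 at 104 and 534 (0.35). Nearest to SNHG5 were ERP44 at 144 and 131 (0.049), HSD17B12 at 126 and 132 (0.22) and RAB18 at 130.2 and 151 (0.23). Nearest to SNHG16 were HSP90B1 at 272 and 806 (0.20), MATR3 at 219 and 715 (0.30) and TFRC at 262 and 1054 (0.31).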

How the data were processed

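Total RNA of 2 cultures was depleted of ribosomal RNA and sequenced from both ends, per the labels' protocols. HISAT2 2.0.5, StringTie and build hg38 are named, without a role, per the submitters' processing notes. No source used here gives the counting tool, the filters or the normalization. The deposited values have no unit and are not whole numbers. Values under 1e-09 were set to 0 and entries without a number left out. Low values followed an offset plus a step per read, a step being 1.26 without glucose and 0.791 without glutamine. Dividing by the step gave whole reads within 0.1 in 100% of values up to 1000 reads (472 and 18536). Recovery was tested on data simulated with a step and an offset, which cannot show that the deposited values were made that way. Of the intervals, only that of a ratio of reads was tested on simulated data.

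Values were summed per name. Log2 ratios set the library without glutamine over that without glucose with a pseudocount of 1, so differences of low names are understated. A name 2-fold apart is a description. Shares are of the reads on transcripts with a number and have 95% Wilson intervals. Ratios of reads have exact binomial ones. The interval of a ratio of ratios uses a normal approximation on the log scale. The members and lists were chosen with earlier results of these data known. Named genes were all 10 hosts, of each list the 4 highest and those above 0 without glucose, and the 3 nearest names. Alternatives were rescaling, centring, pseudocounts, minimums, fold thresholds and the largest transcript alone. Python 3.11.15, pandas 2.3.3 and SciPy 1.17.1 were used.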

Additional observations from a re-analysis of the deposited data

How the results depend on the processing

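Scaling decided the direction of the hosts above 0 in both libraries. After rescaling to 1000000 the log2 ratios of SNHG14, GAS5 and SNHG16 turned to -2.94, -1.72 and -2.55, and after centring on the median of all names to -2.87, -1.66 and -2.48, with SNHG6 at -2.96. Subtracting 4.32 does this by construction for any smaller ratio. Hosts at least 2-fold higher without glucose then numbered 4 (rescaled) and 5 (centred), from 0, and hosts higher without glutamine 5 when centred and 3 with a minimum of 1 in both libraries, from 9. The median log2 ratio of the hosts, 4.89, was 4.08 rescaled, 0.57 centred, 7.24 with a pseudocount of 0.1 and 7.11 without SNHG14. With the largest transcript alone 7 hosts were 2-fold higher without glutamine, SNHG14 and SNHG16 no longer. Without the most abundant name of each library the hosts held 3.45% and 0.879% of the reads on transcripts with a number. Over transcripts above 0 in both libraries, chosen after the data were seen, the ratio without glutamine over that without glucose turned from 0.429 to 1.81 for SNHG14 to GAS5 and from 1.78 to 0.518 for GAS5 to SNHG16. The number of hosts above 0 without glucose, 4, was the same at minimums of 1 and 5 and with the largest transcript alone. Depth limits SNHG6 (2 reads) and the 5 SNHG5 transcripts of 1 or 2 reads without glucose. No paired analysis was possible because each condition has 1 library.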

Other observations

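SNHG14 overlaps or neighbours the imprinted genes of chromosome 15, and of 11 such names tested for a value UBE3A was the 1 that had any, at 98.8 without glutamine and listed at 0 without glucose. SNRPN, SNURF, NDN, MAGEL2, MKRN3, NPAP1, IPW and the PWAR names carried no number. No name of a SNORD, SNORA or SCARNA gene carried a value, so the released snoRNAs themselves are not analysed here.

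The factors by which the libraries were scaled were 1.26 and 0.791 per read, and their product was 1, although the recovered reads differed 33.7-fold. The ratio of the factors was 1.60.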
